A study of Mus musculus with 51 samples.

Results

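Topbp1, Polh and Ino80 are mouse genes of DNA repair and the response to replication stress. They were taken by their symbol in the platform annotation, and they are 3 of the 4200 gene symbols on the array. A probe was printed as a pair of neighbouring spots, whose values were averaged. The 3 genes have 4 such probes among the 7920 features analysed: 1 for Topbp1 (Entrez 235559, spots 11222 and 11244), 1 for Ino80 (Entrez 68142, spots 9158 and 9180) and 2 for Polh (Entrez 80905, spots 9423 and 9445, and spots 6868 and 6890). The genes were put together with measured values in view. Ino80 and the Polh probe at spot 9423 had the steepest slopes on the spiked amount, and Topbp1 had one of the most negative differences between 2 and 0 pmol, so those values are given as a description.

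RNA of the mouse line CRL1606 was hybridised on spotted 2-colour arrays. CRL1606 is a hybridoma, the fusion of BALB/c spleen cells with the myeloma P3-X63-Ag8, which makes an antibody to fibronectin and was grown in serum-free suspension culture. Each of the 51 arrays was a self-hybridisation in which a pool of 100 genes had been added to the hybridoma RNA of one channel, and a different pool of 100 genes to that of the other. Every gene of a pool was added at 1 amount: 0, 0.05, 0.1, 0.25, 0.5 or 0.75 pmol on 6 arrays each, or 0.025, 0.15, 0.2, 1 or 2 pmol on 3 arrays each. The sources used here do not say whether replicate arrays came from separate cultures, so a p-value covers only the spread of the arrays, possibly technical. Nor do they name the genes of the pools, so whether the 3 genes were among them is not known.

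Topbp1 encodes a scaffold protein that binds the checkpoint clamp at stalled replication forks and activates the kinase ATR. Polh encodes DNA polymerase eta, a translesion polymerase that copies past ultraviolet damage where the replicative polymerases stop, and people who lack it have the variant form of xeroderma pigmentosum. Ino80 encodes the ATPase of a chromatin remodelling complex that slides and evicts nucleosomes at promoters, at double-strand breaks and at stalled forks. On these arrays a log2 ratio compares the channels of 1 array, and the hybridoma RNA in both is the same. The numerator channel is not stated, so a ratio is only called positive or negative. It gives no expression level of a gene, and cell type markers cannot be checked with it.

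Deposited array medians lay between -3.33 and 0.971, and each array was centred on its own median before the values below were taken. The share of spots without a value had a median of 1.07% over the arrays, and it was 13.5% to 50.4% on the 3 arrays at 1 pmol. Within an array, paired spots correlated with a median r of 0.887. Replicate 4 at 0.75 pmol had the lowest, 0.198, and this array comes up below. No array was a copy of another.

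Ino80 was close to 0 without a spike and strongly positive at the highest amounts. At 0 pmol its log2 ratio had a lowest value of -0.35, a median of 0.04 and a highest value of 0.17 over 6 arrays. The 3 arrays at 2 pmol read 6.22, 6.33 and 6.17, and those at 1 pmol 5.59, 6.63 and 5.76. All 6 arrays at 1 and 2 pmol lay above each of the 45 arrays of lower amounts, a separation that 0.682% of features showed in this direction. These arrays belong to the slope that chose Ino80, and nothing is read from it.

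Between 0 and 1 pmol the values of Ino80 did not rise steadily with the amount. At 0.025 pmol the arrays read 1.87, -0.78 and -0.14. At 0.05 pmol the lowest, median and highest were 0.16, 0.78 and 2.66, and at 0.1 pmol -0.03, 1.09 and 2.15. The spread within each of these groups was larger than the step between their medians. The arrays at 0.15 pmol (0.06, -0.39 and -0.12) and at 0.2 pmol (-0.44, 0.41 and -0.56) were lower again and overlapped with those at 0 pmol. At 0.25 pmol the lowest, median and highest were -0.22, 1.86 and 3.62, at 0.5 pmol -0.49, 1.49 and 4.17, and at 0.75 pmol 0.97, 3.35 and 4.72. In the order of the means, from -0.20 ± 0.53 (SD, n = 3) at 0.2 pmol to 6.24 ± 0.08 (SD, n = 3) at 2 pmol, the ranges of neighbouring amounts overlapped at every step but that from 0.75 to 1 pmol.

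The Polh probe at spot 9423 ran a like course. Of the 6 arrays at 0 pmol, 5 measured it and read -0.61, -0.47, -0.05, -0.16 and -0.13. Its arrays at 1 pmol read 4.74, 5.93 and 5.11, and those at 2 pmol 5.33, 5.49 and 5.34. Again all 6 arrays at 1 and 2 pmol lay above those of every lower amount. At 0.75 pmol the lowest, median and highest values were 0.74, 3.03 and 4.39, at 0.5 pmol 0.13, 2.20 and 4.13, and at 0.25 pmol 0.19, 1.16 and 3.57. The arrays at 0.5 and 0.25 pmol thus ran from near 0 to near the level of 0.75 pmol.

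At the lower amounts this Polh probe was near 0 or slightly positive. The arrays at 0.2 pmol read -0.01, 0.21 and 0.64, and those at 0.15 pmol 0.50, 0.45 and 0.61. At 0.1 pmol the lowest, median and highest were 0.51, 1.20 and 2.09, and at 0.05 pmol -0.15, 0.61 and 2.87. The means at 0.15 pmol (0.52 ± 0.08, SD, n = 3) and 0.2 pmol (0.28 ± 0.33, SD, n = 3) were below those at 0.05 pmol (0.92 ± 1.11, SD, n = 6) and 0.1 pmol (1.26 ± 0.62, SD, n = 6). At 0.025 pmol 1 array read -2.82, and the others read -0.15 and 0.20. In the order of its means, the ranges of neighbouring amounts overlapped except from 0 to 0.2 pmol and from 0.75 to 1 pmol. Of the 45 spiked arrays, 42 lay above every 0 pmol array for Polh at spot 9423 and 30 did so for Ino80.

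**Figure D1:**
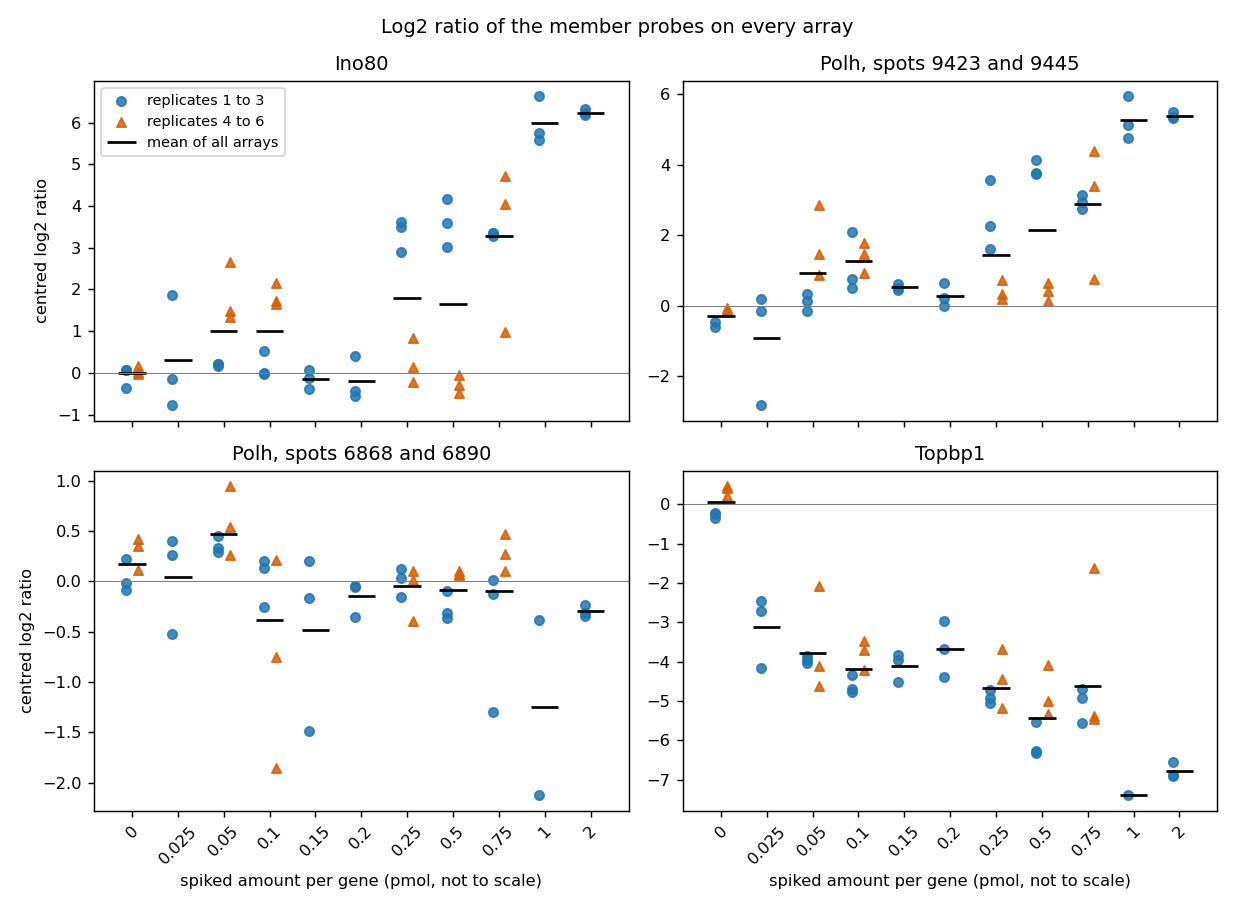
Centred log2 ratio of the 4 probes on every array (y axis) by spiked amount in pmol (x axis, equally spaced and not to scale), with replicates 1 to 3 as circles, replicates 4 to 6 as triangles and the mean of all arrays as a bar; the y axes differ. Ino80 and the Polh probe at spot 9423 reach means of 6.24 and 5.39 at 2 pmol, the Polh probe at spot 6868 stays at -0.30 there, and Topbp1 lies below 0 on every spiked array that measured it.

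The slopes that chose these probes were 0.85 ± 0.14 (SE) log2 units per doubling of the amount for Ino80 and 0.83 ± 0.11 (SE) for Polh at spot 9423, over 45 arrays. They were the first and second steepest of 7920 features. The feature at spot 9467, which has no gene symbol, followed with 0.76 and was the last of those named with them. Just outside came Cnot10, a subunit of the deadenylase complex that shortens mRNA tails, with 0.75. Without the arrays at 1 and 2 pmol, an alternative added after the data had been seen, the slopes were 0.48 for Ino80 and 0.57 for Polh. At 0 pmol, which did not enter the choice, the means were -0.0066 ± 0.48 (SE, n = 6) for Ino80 and -0.28 ± 0.47 (SE, n = 5) for Polh at spot 9423. Neither mean passed the test against 0, limma's moderated test with Benjamini-Hochberg adjustment over all features and a threshold of 0.05 (limma adjusted p 0.994 and 0.702), while 25.2% of features did. The SE in this test takes its spread from the arrays of all amounts. At 0 pmol alone the SD was 0.18 for Ino80 and 0.24 for Polh, and 0 of the 5 Polh arrays were positive. The test thus does not measure the spread of the 0 pmol arrays alone.

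Values of one amount split by replicate number for Ino80 and for Polh at spot 9423. At 0.5 pmol, Ino80 had a mean of 3.60 ± 0.57 (SD, n = 3) in replicates 1 to 3 and -0.28 ± 0.22 (SD, n = 3) in replicates 4 to 6. Polh had 3.88 ± 0.22 and 0.40 ± 0.26 there (SD, n = 3 each). Every array of replicates 1 to 3 lay above every array of replicates 4 to 6 for both genes, as was the case for 17.0% of features. At 0.25 pmol the means were 3.34 ± 0.39 and 0.25 ± 0.53 for Ino80, and 2.48 ± 1.00 and 0.41 ± 0.27 for Polh (SD, n = 3 each). The arrays of both genes again did not overlap, against 9.71% of features in this direction.

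At the low amounts the order was the opposite. At 0.05 pmol, Ino80 had a mean of 0.20 ± 0.03 in replicates 1 to 3 but 1.83 ± 0.72 in replicates 4 to 6, and Polh had 0.10 ± 0.24 and 1.74 ± 1.02 (SD, n = 3 each). Replicates 1 to 3 lay wholly below replicates 4 to 6 for both, as for 16.1% of features. At 0.1 pmol the means of Ino80 were 0.17 ± 0.31 and 1.84 ± 0.27 (SD, n = 3 each) without overlap, as for 15.0% of features. Those of Polh, 1.12 ± 0.85 and 1.39 ± 0.43 (SD, n = 3 each), overlapped. At 0.75 pmol both sets of replicates overlapped for either gene, and replicate 4, the array with the poorest agreement of paired spots, was the lowest with 0.97 for Ino80 and 0.74 for Polh.

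The slope over the 5 spiked amounts with 6 arrays therefore differed by replicate number. For Ino80 it was 1.00 ± 0.14 (SE, 15 arrays) in replicates 1 to 3 and -0.03 ± 0.29 (SE, 15 arrays) in replicates 4 to 6. For Polh at spot 9423 it was 0.87 ± 0.13 and 0.04 ± 0.23 (SE, 15 arrays each). The arrays also fall into sets with like ratios, drawn by clustering without the members. The clustering used features whose mean over the spiked arrays was less than 1 log2 unit from 0. At 0.5 pmol, replicates 4 to 6 were all in set 5, and replicates 1 to 3 were in sets 2 and 7. Over the spiked arrays, the median of Ino80 was -0.26 in set 5 (8 arrays), 0.14 in set 6 (5 arrays), 3.03 in set 2 (9 arrays) and 5.17 in set 7 (6 arrays). Within an amount, no set held arrays of both replicates 1 to 3 and 4 to 6, so the labels cannot be told apart there. Across amounts they crossed. Set 2 held replicates 4 to 6 at 0.1 pmol and replicates 1 to 3 at 0.75 pmol. Set 5 held replicates 2 and 3 at 0.15 pmol and replicates 4 to 6 at 0.5 pmol. Spiked arrays of Ino80 ran from 1.66 to 3.5 in set 2 and -0.56 to 0.53 in set 5. Those of Polh overlapped (0.93 to 3.75 and 0.13 to 2.09). Which label the values follow was not tested. A fit that added array set gave slopes of 0.39 for Ino80 and 0.44 for Polh.

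The second Polh probe, at spot 6868, lists the same sequence accession as the probe at spot 9423 and did not share its course. It was found after the genes had been chosen. At 2 pmol its arrays read -0.24, -0.31 and -0.34, and at 0 pmol the lowest, median and highest were -0.09, 0.17 and 0.42. At 0.75 pmol the lowest, median and highest were -1.30, 0.06 and 0.48, and at 0.5 pmol -0.37, -0.02 and 0.11. The arrays at 2 pmol lay just below those at 0 pmol, those at 0.5 and 0.75 pmol overlapped with both, and none reached the 2 pmol level of the other probe. The order of 2 and 0 pmol is given without the share of all features that showed it, so nothing is read from it. At the remaining amounts the means lay between -1.25 (n = 2) at 1 pmol, from arrays of -0.38 and -2.13, and 0.47 ± 0.26 (SD, n = 6) at 0.05 pmol.

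The difference of this probe between 2 and 0 pmol was -0.46 ± 0.35 (SE), which did not pass the test (limma adjusted p 0.409), while 15.6% of features did. That SE takes its spread from the arrays of all amounts. The SD was 0.05 (n = 3) at 2 pmol and 0.20 (n = 6) at 0 pmol. The slope of this probe over 44 spiked arrays was -0.10 ± 0.05 (SE) per doubling (limma adjusted p 0.156), with 23.1% of features past the threshold. Its mean at 1 pmol passed the test against 0 (limma adjusted p 0.00333), as did 45.9% of features at that amount. The paired spots of this probe correlated with r = 0.358 over 50 arrays, below the median of 0.668 over 7628 features. Those of Polh at spot 9423 (0.993), Topbp1 (0.994) and Ino80 (0.979) were above it. At 0.5 pmol replicates 1 to 3 of the probe at spot 6868 lay wholly below replicates 4 to 6 (-0.26 ± 0.14 and 0.08 ± 0.02, SD, n = 3 each), as for 13.0% of features, and at 0.75 pmol (-0.47 ± 0.72 and 0.29 ± 0.18, SD, n = 3 each), as for 8.87%. This order is the opposite of that of the probe at spot 9423 at 0.5 pmol, at a far smaller size.

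The probe at spot 6868 lies in block 20, in row 9 and column 4. The feature directly above it, at spot 6824, differed between 2 and 0 pmol by -0.31 ± 0.31 (SE, limma adjusted p 0.538), with r = 0.477 to the probe over 50 arrays. Irak2, a kinase of interleukin-1 signalling printed directly below, differed by -0.02 ± 0.39 (SE, limma adjusted p 0.979), with r = 0.305 over 49 arrays. The features to the left and right had r of -0.089 and 0.444. The vertical values lie around the median of vertically adjacent features given below, and neither vertical neighbour passed the test. Pairs side by side had a median r of 0.223. Of these pairs 14.8% lay below the value to the left and 78.7% below that to the right.

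The probes of Polh correlated with each other with r = -0.321 over 49 arrays. A lack of agreement was common on this array. Among 591 sequence accessions with 2 probes, the median r between the probes was 0.032. In 55 of them at least 1 probe had a mean of 2 log2 units or more from 0 at 2 pmol, and in 3 of these both did with the same sign: Fem1c, which brings substrates to a cullin ubiquitin ligase, Mbtps2, a membrane protease, and Smpd4, a sphingomyelinase. The files do not hold the probe sequences, so the stretch of Polh that each probe covers is not given.

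Ino80 and Polh at spot 9423 were printed in the same block of the array, block 27 of 48. Ino80 lies in row 1 and column 6, and Polh in row 13 and column 7. The feature directly above Polh is Cnot10, with means of -0.18 ± 0.31 (SD, n = 5) at 0 pmol against 5.60 ± 0.14 (SD, n = 3) at 2 pmol. The feature directly below is that at spot 9467, with -0.31 ± 0.56 (SD, n = 5) against 5.02 ± 0.16 (SD, n = 3). The differences were 5.78 ± 0.71 (SE) and 5.33 ± 0.70 (SE). Both features rank next to the members by a slope that includes the 2 pmol arrays, so these values are given without a test. Over 50 arrays Polh correlated with Cnot10 with r = 0.952 and with spot 9467 with r = 0.987. The latter was the highest among all 6809 vertically adjacent pairs of features, of which 30 (0.441%) were over 0.9 and whose median was 0.360.

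The features to the sides of Polh did not do this. Czib, a small zinc-binding protein printed to the left, had -0.21 ± 0.54 (SD, n = 6) at 0 pmol against -0.03 ± 0.12 (SD, n = 3) at 2 pmol, with r = 0.193 to Polh. Raver1, an RNA-binding protein printed to the right, had r = -0.481. Its difference between 2 and 0 pmol was -1.24 ± 0.38 (SE, limma adjusted p 0.0188), and it turned to 0.12 without centring.

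Ino80 lies at the upper edge of the block and has no feature above it. The feature below it, at spot 9202, had a mean of -0.18 ± 0.24 (SD, n = 5) at 0 pmol against 3.44 ± 0.12 (SD, n = 3) at 2 pmol, a difference of 3.62 ± 0.62 (SE, limma adjusted p 1.5e-05). It correlated with Ino80 with r = 0.886. To the right of Ino80 lies Cpsf6, a subunit of the cleavage factor that sets mRNA ends, with r = 0.472. The means of Cpsf6 were 0.43 ± 0.51 (SD, n = 6) at 0 pmol against 8.04 ± 0.36 (SD, n = 3) at 2 pmol, and between 3.84 and 8.31 over the 10 spiked amounts. Cpsf6 was thus far from 0 at every spiked amount, also at 0.15 and 0.2 pmol, where Ino80 was not. The feature to the left, at spot 9157, stayed between -0.91 and 0.17, with r = -0.03.

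These neighbours form a line through the block. Besides Ino80 and Polh it holds the features at spots 9202, 9291, 9335 and 9467, Usp25, a deubiquitinating enzyme, and Cnot10. There is 1 of these 8 features in each of the 8 pair rows of the block, in column 6 in the upper 2 rows and in column 7 in the rest. The 28 correlations among them had a median of 0.944 and ran from 0.836 to 0.987. The line was picked within this block by r over 0.9 with Polh, so this is a description. The feature at spot 9071, in block 26, had r = 0.902 and was left out for its block. Row and column were not used. The other 8 features of the same columns correlated with Polh between -0.329 and 0.604. The other 157 features of the block had a median r of 0.064. The highest of these was 0.883, at spot 9481 in column 21.

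**Figure D2:**
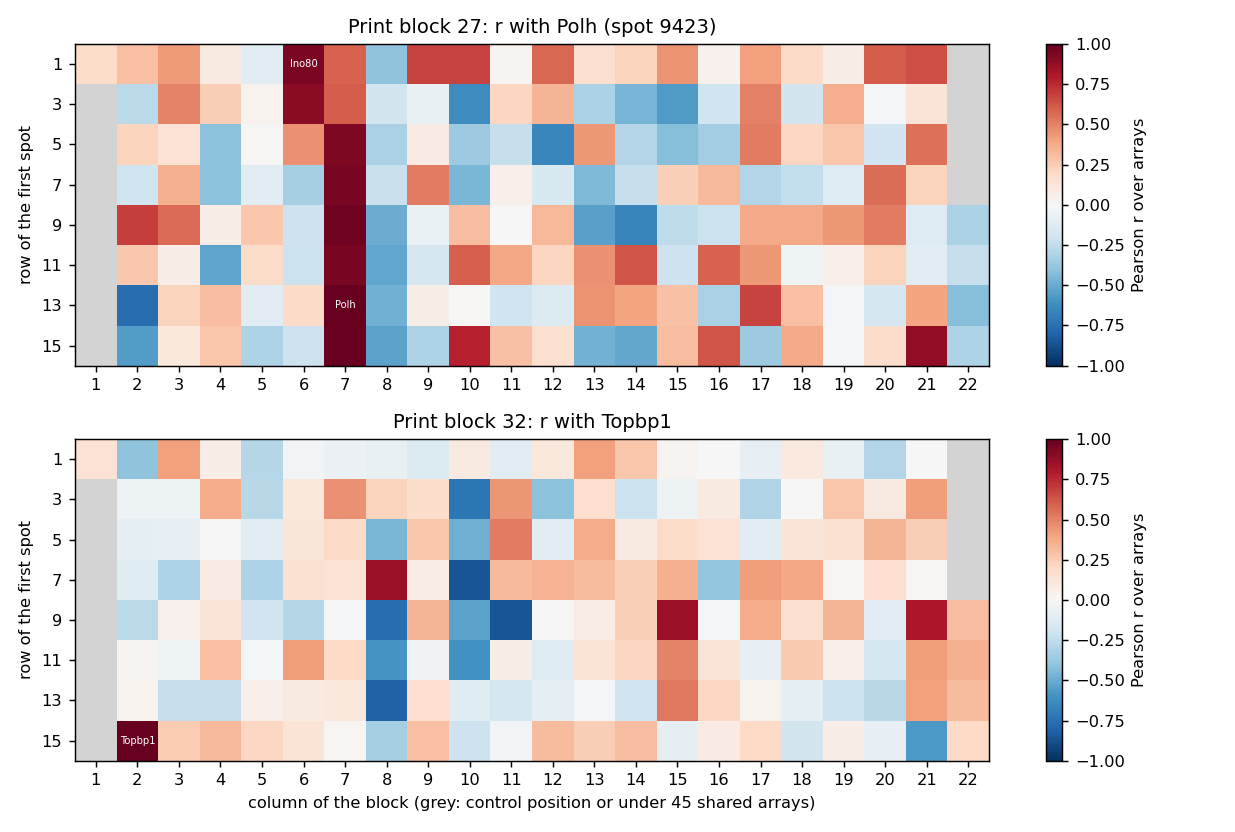
Pearson r over the arrays (colour) of every feature of print block 27 with the Polh probe at spot 9423 (upper panel) and of print block 32 with Topbp1 (lower panel), at the row of the first spot (y axis) and the column (x axis). High values form a line in columns 6 and 7 of block 27 that holds Ino80 and Polh, while the feature directly above Topbp1 has r = 0.035.

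The means of the 8 features lay near 0 at 0 pmol and were all well above it at 1 and 2 pmol, but they did not agree at every low amount. At 0 pmol their means lay between -0.31 and 0.09, at 0.15 pmol between -0.18 and 1.53, at 0.2 pmol between -0.20 and 1.31, at 0.5 pmol between 1.49 and 2.50, and at 2 pmol between 3.44 and 6.24. Replicates 1 to 3 lay wholly above replicates 4 to 6 in all 8 at 0.5 pmol and in 7 of 8 at 0.25 pmol. Of all features, 17.0% and 9.71% did so. The 8 were picked by their correlation with Polh over these same arrays, so a shared split was in part built in. At 0.5 pmol the means of the 8 were 2.95 to 4.05 in replicates 1 to 3 and -0.28 to 0.97 in replicates 4 to 6. The opposite order of the low amounts was shared less widely. Replicates 1 to 3 lay wholly below in 4 of the 8 at 0.05 pmol and in 2 of the 8, Ino80 and Cnot10, at 0.1 pmol. Of all features, 16.1% and 15.0% did so. Usp25 had means of 2.00 in replicates 1 to 3 and 1.32 in replicates 4 to 6 at 0.1 pmol, with overlap.

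**Figure D3:**
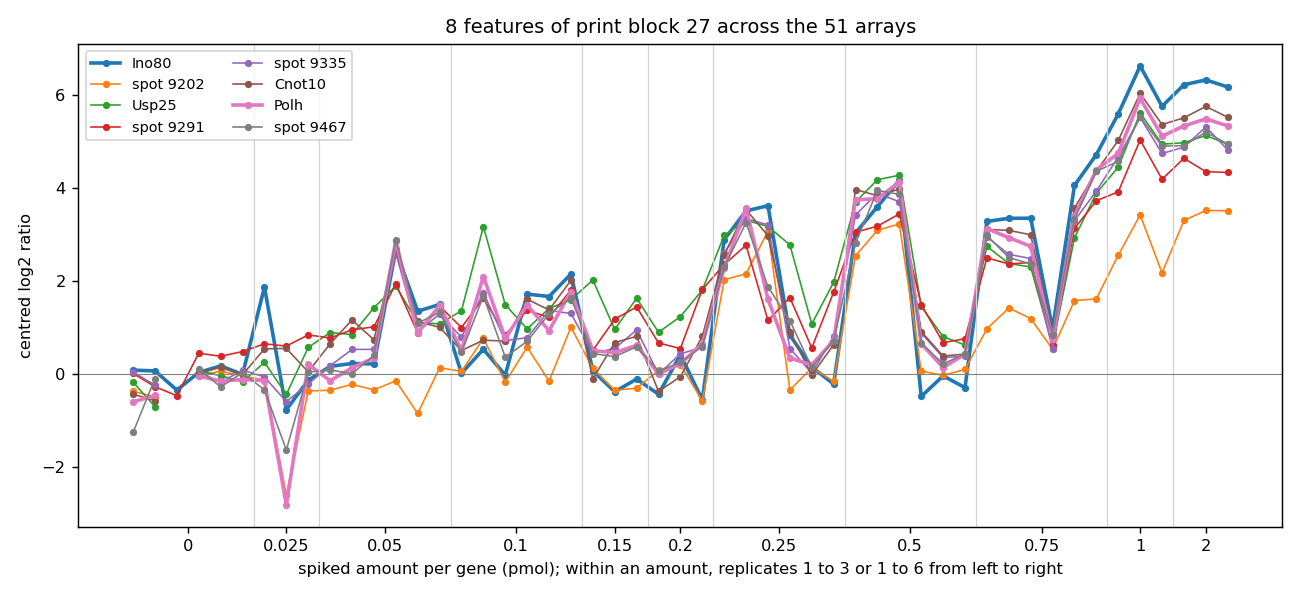
Centred log2 ratio (y axis) of the 8 features in line in print block 27 on each of the 51 arrays, ordered by spiked amount in pmol and, within an amount, by replicate number (x axis); lines only link the points of a feature. All 8 are high in replicates 1 to 3 and low in replicates 4 to 6 at 0.5 pmol, and all 8 have their highest means at 1 and 2 pmol.

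Features with a like course lay at like positions in other blocks too. Of 7883 features, 36 correlated with Polh at spot 9423 with r over 0.8. Of these, 28 lay in other blocks, 10 of them in columns 6 and 7, which hold 9.70% of the features there. Of the 47 features at the same position as Polh in the other blocks, 5 were among them (10.6%, against 0.457% of all features). These were the features at spots 9071 and 6255, Tmem30a, a subunit of phospholipid flippases (r = 0.840), Grip1, a synaptic scaffold (r = 0.813), and Exo1, a 5′ exonuclease of mismatch repair and break resection (r = 0.828). For Ino80 31 features had r over 0.8, and of the 23 in other blocks 11 lay in columns 6 and 7. Among them were Ddx50, an RNA helicase at the position of Ino80 in block 36 (r = 0.946), and Tfcp2l1, a transcription factor at that position in block 26 (r = 0.858).

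The named features most like each probe were taken from all blocks. For Ino80 they were Cnot10 (r = 0.966), Ddx50 (0.946), Polh at spot 9423 (0.939), Tmem30a (0.896) and Pdcd11, a ribosome biogenesis factor (0.874), over 50 or 51 arrays. For Polh at spot 9423 they were Cnot10 (0.952), Ino80 (0.939), Usp25 (0.932), Ddx50 (0.898) and Usp18, a protease that removes the ubiquitin-like protein ISG15 (0.894), over 50 arrays. For the Polh probe at spot 6868 the highest was Scaf4, a regulator of transcript ends (0.718), and 0 of 7888 features were over 0.8. Pairs of features share arrays, labelling and print position, so these values describe likeness alone. Whether print position played a part in the course of Ino80 and Polh was not tested.

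Topbp1 was negative, and it was apart from its 0 pmol level from the lowest amount on. At 0 pmol its lowest, median and highest values were -0.34, 0.0038 and 0.46 over 6 arrays. At 0.025 pmol the arrays read -2.46, -4.16 and -2.72, at 0.15 pmol -4.52, -3.96 and -3.83, and at 0.2 pmol -3.67, -2.97 and -4.38. At 2 pmol they read -6.89, -6.54 and -6.88. All 3 arrays at the lowest amount lay below those at 0 pmol, and those at 2 pmol were lower again.

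In the groups of 6, the lowest, median and highest values of Topbp1 were -4.61, -3.99 and -2.06 at 0.05 pmol and -4.76, -4.28 and -3.46 at 0.1 pmol. They were -5.18, -4.82 and -3.67 at 0.25 pmol, -6.33, -5.43 and -4.08 at 0.5 pmol, and -5.56, -5.15 and -1.62 at 0.75 pmol. The value of -1.62 was that of replicate 4 at 0.75 pmol, the array that was also lowest for Ino80 and Polh at this amount. At 1 pmol 1 array measured Topbp1, at -7.39. All 40 measured arrays of 0.025 to 1 pmol lay below all 6 arrays at 0 pmol, as held for 0.518% of features in this direction.

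The means of Topbp1 at 0.025 to 1 pmol did not enter its choice and were tested against 0. The lowest tested amount, 0.025 pmol, had a mean of -3.12 ± 0.92 (SD, n = 3). At 0.25 pmol it was -4.66 ± 0.55 and at 0.5 pmol -5.42 ± 0.84 (SD, n = 6 each). Of the 9 amounts, 8 had the arrays for a test, and Topbp1 was negative and past the threshold at all 8. The limma adjusted p ran from 1.39e-06 at 0.025 pmol to 9.03e-18 at 0.5 pmol. Among all features, 13.6% were called negative at 0.025 pmol, 15.9% at 0.05 pmol and 10.3% at 0.5 pmol. The shares were smaller elsewhere: 5.64% for 0.1 pmol, 4.92% for 0.15 pmol, 2.54% for 0.2 pmol, 4.13% for 0.25 pmol and 6.93% for 0.75 pmol.

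The difference of Topbp1 between 2 and 0 pmol, for which it was chosen, was -6.82 ± 0.55 (SE) and the seventh lowest of 7917. Its slope over the 43 measured spiked arrays, 2 pmol included, was -0.48 ± 0.08 (SE) per doubling. The list it came from ended with Ms4a4b, a membrane protein of lymphocytes, at -6.20, and the feature just outside was the choline kinase Chkb at -6.18. Over the 40 measured arrays of 0.025 to 1 pmol, the slope of Topbp1 was -0.41 ± 0.09 (SE) per doubling (limma adjusted p 0.00282), where 8.96% of features were called negative. This slope did not pass with array set as a covariate (-0.34, limma adjusted p 0.128) or without centring (-0.33, limma adjusted p 0.257).

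In the order of its means Topbp1 was lowest at 1 pmol, followed by 2 pmol, and the measured arrays of both lay below all the rest. The 2 pmol arrays entered the choice of Topbp1, so this is a description, given without the share of all features. The value at 1 pmol is that of 1 array without a spread, so whether 1 and 2 pmol differed cannot be told. From 0.5 pmol (-5.42) to 0.025 pmol (-3.12) the ranges of neighbouring amounts in the order overlapped, so these amounts did not differ beyond their spread from the next. The mean of -3.67 ± 0.71 (SD, n = 3) for 0.2 pmol was closer to 0 than the means of -3.77 ± 0.87 for 0.05 pmol and -4.20 ± 0.52 for 0.1 pmol (SD, n = 6 each). The step from 0.025 to 0 pmol had no overlap.

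The replicate sets of Topbp1 lay closer together at 0.25 and 0.5 pmol than those of Ino80 and of Polh at spot 9423. At 0.5 pmol the means were -6.05 ± 0.44 in replicates 1 to 3 and -4.80 ± 0.65 in replicates 4 to 6 (SD, n = 3 each), and at 0.1 pmol -4.60 ± 0.22 and -3.79 ± 0.38 (SD, n = 3 each). In both cases replicates 1 to 3 lay wholly below, as for 13.0% and 15.0% of features. At 0.05, 0.25 and 0.75 pmol the sets overlapped. At 0 pmol replicates 1 to 3 (-0.26 ± 0.07) also lay below replicates 4 to 6 (0.36 ± 0.13, SD, n = 3 each), as for 29.3% of features. Over the spiked arrays the median of Topbp1 by array set lay between -7.39 and -3.67, so no set brought it near 0.

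Topbp1 lies in row 15 and column 2 of block 32, at the lower edge, with no feature below it and a control position to its left. The feature directly above, at spot 11178, had a mean of 0.40 ± 0.41 (SD, n = 6) at 0 pmol against 0.28 ± 0.33 (SD, n = 3) at 2 pmol. The difference was -0.12 ± 0.36 (SE, limma adjusted p 0.859), and r with Topbp1 was 0.035. The feature to the right, at spot 11223, had means of 0.59 ± 0.44 (SD, n = 6) against 0.22 ± 0.09 (SD, n = 3), with a difference of -0.37 ± 0.52 (SE, limma adjusted p 0.678) and r = 0.254. Neither neighbour shared the course of Topbp1. Of the 53 features with r over 0.8 to Topbp1, 50 lay in other blocks, 3 in its own block and 0 of 43 at its position in other blocks. In columns 6 and 7, those of Ino80 and Polh, lay 2 of the 53. Some of the 53 lay in column 2 of other blocks, among them Ms4a4b (r = 0.806), Ctse (0.853) and Nr3c1 (0.929) in rows 9, 11 and 13 of block 36. Whether print position played a part in the course of Topbp1 was not tested.

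The named features most like Topbp1 lay in blocks 14, 38, 44 and 45. They were the poly(A) polymerase Papola (r = 0.966), the Polycomb protein Cbx8 (0.956), Uvssa, a factor of transcription-coupled nucleotide excision repair (0.939), Spag5, a protein of the mitotic spindle (0.931), and Fem1c at spot 15721 (0.931), over 49 arrays. Uvssa stood at 0.07 ± 0.21 (SD, n = 6) without a spike, and at -3.04 ± 1.01 and -5.15 ± 0.14 with 0.025 and 2 pmol (SD, n = 3 each). Papola stood at 0.51 ± 0.27 (SD, n = 6), -3.55 ± 1.00 (SD, n = 3) and -6.47 ± 0.20 (SD, n = 3) at these amounts. Its second probe, at spot 10401, had a mean of -0.17 at 2 pmol, so Papola, like Polh, had 1 probe far from 0 and 1 near it. Fem1c was lower than Topbp1 at 0.025 pmol, with -5.16 ± 0.67 (SD, n = 3).

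**Figure D4:**
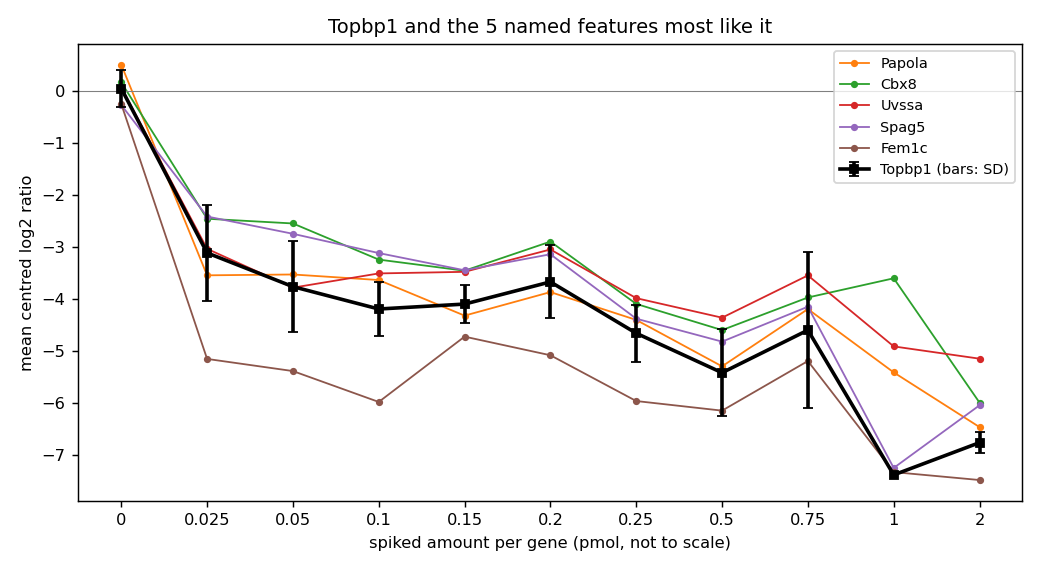
Mean centred log2 ratio (y axis) of Topbp1 (black squares, bars are the SD over arrays) and of the 5 named features most like it (coloured lines) by spiked amount in pmol (x axis, equally spaced and not to scale). All 6 are near 0 at 0 pmol and below -2 from 0.025 pmol on; Topbp1 has a mean of -3.12 at 0.025 pmol and -6.77 at 2 pmol.

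Across arrays, Ino80 and Polh at spot 9423 correlated with r = 0.939 over 50 arrays. Ino80 and Topbp1 had r = -0.622 over 49 arrays, and Polh at spot 9423 and Topbp1 r = -0.686 over 48. These values rest on probes chosen for their course over the amount and are a description. At 0.15 and 0.2 pmol the probes parted. Topbp1 was at -4.10 ± 0.37 and -3.67 ± 0.71 there, while Ino80 was at -0.15 ± 0.23 and -0.20 ± 0.53 (SD, n = 3 each).

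Other genes of DNA repair and replication were taken from a list of 218 symbols grouped by role, of which 80 were found on the array with 98 features, members left out. Between 2 and 0 pmol, 11 of the 98 (11.2%) passed the test, 6 positive and 5 negative. Of all features 15.6% passed, 10.3% positive and 5.33% negative. At an unadjusted p under 0.05 there were 26 of the 98. Their median difference was -0.01, that of all features 0.04, and the median absolute differences were 0.42 and 0.45. The list thus held no larger share of called features than the array as a whole.

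On the positive side, Exo1 had the largest difference, 3.04 ± 0.38 (SE), with 0.14 ± 0.36 (SD, n = 6) at 0 pmol against 3.18 ± 0.20 (SD, n = 3) at 2 pmol (limma adjusted p 2.02e-08). It lies in block 28 at the position that Polh holds in block 27. Clspn, the mediator claspin that links ATR to its effector kinase, differed by 2.08 ± 0.33 (SE), and Ercc4, the XPF nuclease subunit of nucleotide excision repair, by 1.72 ± 0.29 (SE). Pola1, the catalytic subunit of DNA polymerase alpha, differed by 1.69, the replication initiation factor Mcm10 by 1.12 and Mpg, a glycosylase of base excision repair, by 0.99. These are values of 1 probe each. Ercc4 has another probe, with a difference of 0.18 ± 0.28 (SE), and Pola1 has 3 others, with 0.97, 0.42 and -0.57, and none of them was called. The differences of the called Pola1 probe and of Mpg came mostly from the 0 pmol arrays, with means of -1.28 ± 1.09 and -0.83 ± 0.69 (SD, n = 6 each) there and 0.41 ± 0.22 and 0.17 ± 0.14 (SD, n = 3 each) at 2 pmol.

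On the negative side, Trp53bp1, which steers double-strand breaks to end joining, differed by -3.38 ± 0.52 (SE), with -3.31 ± 0.03 (SD, n = 3) at 2 pmol. Slx4, a scaffold for nucleases that cut DNA junctions, differed by -3.29 ± 0.70 (SE). Fanca, of the Fanconi anaemia core complex, differed by -2.08 ± 0.65 (SE), from arrays at 2 pmol between -3.25 and -0.02. Its second probe, at spot 3098, had a mean of 0.68 at 2 pmol. The helicase subunit Mcm7 (-1.10) and Palb2, which recruits BRCA2 (-0.79), completed the called genes. By role, 3 of 18 features of homologous recombination and the Fanconi pathway were called negative and 1 positive, and among 10 of translesion synthesis 0 were called.

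**Figure D5:**
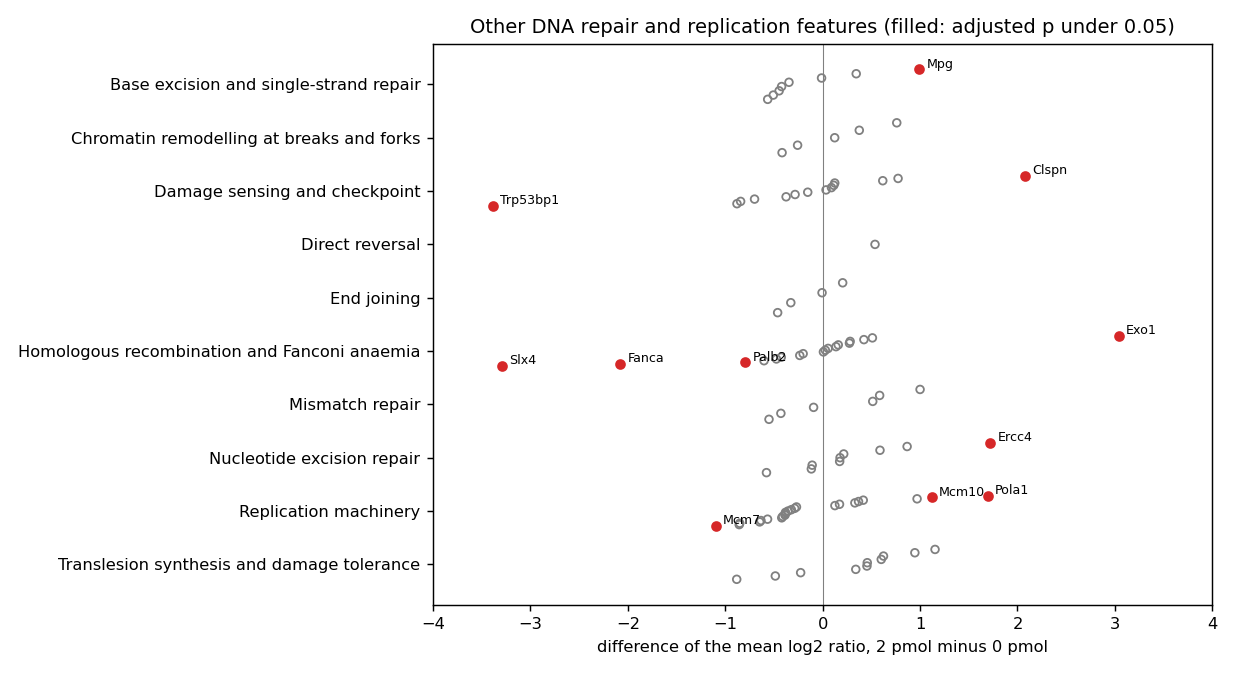
Difference of the mean log2 ratio, 2 pmol minus 0 pmol (x axis), of the 98 features of other repair and replication genes by role (y axis), with filled, named points for those with a limma adjusted p under 0.05. The 11 called features run from -3.38 for Trp53bp1 to 3.04 for Exo1, and Topbp1, at -6.82, would lie outside this range.

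Of the 98 features, 22 (22.4%) had a slope past the threshold over the spiked arrays, 10 positive and 12 negative. Of all features 23.1% passed, 13.0% positive and 10.1% negative. The positive ones were led by Exo1 (0.34 ± 0.06 SE) and Clspn (0.19 ± 0.04 SE), and the negative ones by Orc2, a subunit of the origin recognition complex (-0.24 ± 0.06 SE), and Rev1, a translesion polymerase and scaffold (-0.20 ± 0.05 SE). Next came 2 of 3 probes of the topoisomerase Top1 (-0.20 and -0.18), the p53 target Ccng1 (-0.18) and the mismatch repair protein Msh6 (-0.17), and, on the positive side, the ubiquitin-conjugating enzyme Ube2b (0.17), the mismatch repair protein Pms1 (0.16), Ercc4 (0.14) and Mcm10 (0.12). Other probes of these genes did not pass: the slope was -0.01 for the last probe of Top1 (spot 3711), -0.01 for Ube2b at spot 8248, -0.13 for Pms1 at spot 8546 and 0.03 for Ercc4 at spot 11838. Each of these calls thus belongs to a probe and not to the gene. Of the 23 features of the replication machinery, 7 were negative and 1 positive. All of these slopes were smaller than those of Ino80 and Polh at spot 9423, which were chosen for theirs.

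Ino80c and Ino80d encode other subunits of the INO80 complex. Ino80c had a slope of 0.10 ± 0.04 (SE, limma adjusted p 0.0469) and a difference between 2 and 0 pmol of 0.76 ± 0.31 (SE, limma adjusted p 0.0894). Ino80d had a slope of 0.01 ± 0.04 (SE, limma adjusted p 0.913) and a difference of -0.42 ± 0.24 (SE, limma adjusted p 0.265). Neither came near the 6.24 of Ino80 at 2 pmol. Once array set entered as a covariate, 1 of the 98 slopes passed, beside 1.40% of all features.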

How the data were processed

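Per the labels, RNA of a hybridoma line was hybridised on 51 spotted 2-colour arrays. Each spot's value on an array is a log2 ratio as deposited by the authors. The log base was read from the values, and the channel in the numerator, background correction and normalisation are not given in the sources used here, so ratios are called positive or negative. Values at the upper limit of 16.61 were taken as missing. Each array was centred on its median, spots 22 positions apart were averaged, and 11 control positions per block were left out. Gene names came from the platform annotation, updated with RefSeq (GRCm38.p6, names only).

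The fits used R 4.3.3, limma 3.58.1 and, for reading, the package data.table in version 1.17.8, with 1 mean per amount over 51 arrays or a slope on log2 of the amount, two-sided, and Benjamini-Hochberg adjusted p under 0.05 over all features. The SE of a mean or a difference takes its spread from the arrays of all amounts. At least 2 arrays per amount were needed, or 10 for a slope. The fits were tested on simulated data. Correlations used Python 3.11.15 with pandas 2.3.3, and figures matplotlib 3.10.9. The number of arrays limits the precision. The genes named are the members, their printed neighbours, the 5 features with a symbol most correlated with each probe (at least 45 shared arrays) and up to 6 called list genes each way. Cnot10 and Chkb as features ranked next to the members, the line of 8 features, those at the members' positions, the second probes, Ino80c and Ino80d were named after their values were seen. So were Ms4a4b, Ctse and Nr3c1. Members and lists were chosen with earlier results of these data known.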

Additional observations from a re-analysis of the deposited data

Results flagged for a closer look

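In 24 groups of 6 or 5 arrays of the 4 probes, 4 single arrays lay far from the rest of their group, by Dixon's test at the 95% level, which chance meets in about 1 of 20 groups. Replicate 4 at 0.75 pmol read -1.62 for Topbp1, where the others lay at -4.69 or lower. This array had the lowest correlation of paired spots in the series, 0.198. Replicate 5 at 0.05 pmol read -2.06 for Topbp1. Replicate 3 at 0 pmol read -0.35 for Ino80, and it was the array that did not measure Polh at spot 9423. Replicate 2 at 0.75 pmol read -1.30 for the Polh probe at spot 6868, where its spots read -0.47 and -2.13.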

How the results depend on the processing

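Topbp1 was negative and past the threshold at 5 of the 5 amounts tested with replicates 4 to 6 alone, and at 8 of 8 under each other alternative that gave a value. It was not measured on all arrays, so the setting over such features gave none. Its slope over 0.025 to 1 pmol lost the call without centring (-0.33), with array set as a covariate (-0.34), in replicates 4 to 6 alone (-0.23) and in replicates 4 to 6 with all arrays of the amounts of 3 (-0.38, limma adjusted p 0.0612, added after seeing the data). Without single arrays it lay between -0.49 and -0.35. Without centring, the 0 pmol means were -2.10 for Polh at spot 9423 and -1.96 for Ino80, and both then passed. That of Ino80 was 0.0598 with the first spot of each pair and 0.0595 in replicates 4 to 6, in both ways of taking them, and -0.0412 to 0.0629 without single arrays, the highest without replicate 3. The slope of Ino80 turned to -0.0344 in replicates 4 to 6 alone, and the difference of Raver1 to 0.12 without centring. In the repair list, the count at 2 pmol was 32 without centring, 17 with arrays scaled to one spread, 6 of 43 over features measured on all arrays and 6 to 13 without single arrays. The lowest of these, 6, came without replicate 1 at 2 pmol, and it was 7 without replicate 3. The count of slopes was 1 without centring, 14 over features measured on all arrays, 1 with array set as a covariate, 0 in replicates 4 to 6 by limma (14 at an unadjusted p under 0.05), and, added after seeing the data, 13 in replicates 4 to 6 with all arrays of the amounts of 3 and 6 without 1 and 2 pmol. Without single arrays it was 15 to 25. The causes were not tested. With replicate number as a block, the slope of Topbp1 was -0.43 (limma adjusted p 0.00179) and the counts were 9 and 22, so the replicate block changed no call of the members. The median r of same-numbered arrays was -0.01 over 210 pairs, beside -0.0024 for arrays of other numbers. Of the 210 pairs, 43 correlated over 0.1, without such a count for other numbers. Of the 51 arrays, 14 correlated best with arrays of their own number.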
